A study of Mus musculus with 14 samples.

Results

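The 10 genes described here encode the Hsp90 chaperones of mouse cells, 4 of their co-chaperones and a pair of heat shock factors, as measured in mouse heart left ventricles. They were chosen by name, with earlier results of these data known. All 10 were found among 47642 genes of the count table and were among the 11563 genes that had enough counts for testing. RNA was measured in 7 male mice carrying a gene trap in their Uty gene (UtyGT) and in 7 male wild-type (WT) mice, all 40 days old, with 1 library per mouse. The trap, Uty Gt(XS0378)Wtsi, lies in the fourth intron of Uty on chromosome Y and adds a splice acceptor and a stop signal; it came from embryonic stem cells of 129P2/OlaHsd origin and was backcrossed to C57BL/6J females for more than 10 generations. WT mice carried an intact chromosome Y of the same 129P2/OlaHsd origin on the same C57BL/6J background, obtained by a separate backcross of 129P2/OlaHsd males. The trapped allele is present in every cell of the animal. According to the paper, Ddx3y transcripts were also lower and Eif2s3y transcripts higher in UtyGT left ventricles, so the comparison is not of Uty alone. Libraries were made with QuantSeq 3′ FWD, which yields reads from the 3′ ends of polyadenylated transcripts, so that counts need no scaling by transcript length.

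Hsp90 proteins are ATP-driven chaperones that complete the folding of many signalling proteins, among them protein kinases and steroid receptors, after these have been handed over by Hsp70. Co-chaperones bind Hsp90 at successive steps of its cycle, either to load clients or to set the rate at which ATP is hydrolysed. Heat shock factors are transcription factors that bind heat shock elements when unfolded proteins accumulate, and in resting cells Hsp90 itself is thought to hold the main factor, Hsf1, in an inactive state.

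Library totals ran from 6322161 to 9397378 counts in WT and from 6357485 to 10268706 in UtyGT. Uty gave 47 to 75 counts in each WT library and 1 to 6 in each UtyGT library, so all labels matched the trapped gene. Libraries WT 4 and UtyGT 6 (scores of 59.1 and 54.7) stood apart from the others at the same end of the first principal component of all genes, which held 45.75% of the variance. Values without UtyGT 6 are given for each of the 10 genes whose value or call rests on it. On this component the other UtyGT libraries were at -45.4 to -0.03. WT 6 and WT 7, at -24.6 and -33.2, lay within that range, and the remaining WT libraries were at 11.1 to 26.2. The libraries also differed in how levels went with GC content, with a mean slope of 0.10 (log2 per 10 points of GC) in WT and -0.12 in UtyGT; GC correction values are given below where a call was lost. All 10 cardiomyocyte markers were detected, and their summed level, in counts scaled to library size (CPM), was 60519 to 120275 CPM in WT hearts and 63259 to 114558 CPM in UtyGT, with WT 4 and UtyGT 6 at the top of each range. Summed endothelial markers were at 1120 to 1828 CPM in WT hearts and 754 to 2292 CPM in UtyGT, with UtyGT 6 lowest. Of these 9 markers, 2 were called lower, beside 3.34% of all tested genes. Without UtyGT 6 the UtyGT range was 1515 to 2292 CPM. In that fit 4 were called lower and 1 higher, beside 11.4% and 7.87% of all tested genes. Summed red cell markers were at 3192 to 6874 CPM in WT hearts and 1071 to 5117 CPM in UtyGT. Of 5 tested red cell markers, 2 were called lower, beside 3.34% of all tested genes. Of 9 endothelial markers, 1 had a log2 fold change above 0 (median -0.34), beside 51.1% of all tested genes. The same held for 8 of 8 tested pericyte and smooth muscle markers (median 0.36) and 6 of 7 tested fibroblast markers (median 0.07). In these last sets 0 were called, or 1 higher in each without UtyGT 6. The part of these cell types in the results below was not tested, and in bulk tissue fewer cells of a type and less RNA per cell cannot be told apart.

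Among the 10 genes, Hsp90aa1 and Hsp90b1 were higher in UtyGT hearts, by 0.89 and 0.82 on the log2 scale, and none was called lower. A gene was called when its adjusted p-value in the quasi-likelihood test of edgeR was below 0.05. Of all tested genes, 4.7% were called higher and 3.34% lower, or 8.03% in either direction, against 2 and 0 of the 10. At an unadjusted p below 0.05, 1 gene of the 10, Trap1, was lower; DESeq2 and limma voom also called 0 lower. When library UtyGT 6 was left out, the same 2 genes were called higher, and 4 genes were called lower, namely Trap1, Cdc37, Stip1 and Hsf2. Without that library, 7.87% of all tested genes were called higher and 11.4% lower. With WT 4 also left out, 2 of the 10 were called higher (6.88% of all tested genes) and 2 lower (7.21%). The median log2 fold change of the 10 genes was -0.11, with 4 above and 6 below 0, and that of all tested genes was 0.01. None of the 10 genes separated the genotypes without overlap in all 14 libraries, which 2.14% of all tested genes did.

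**Figure D1:**
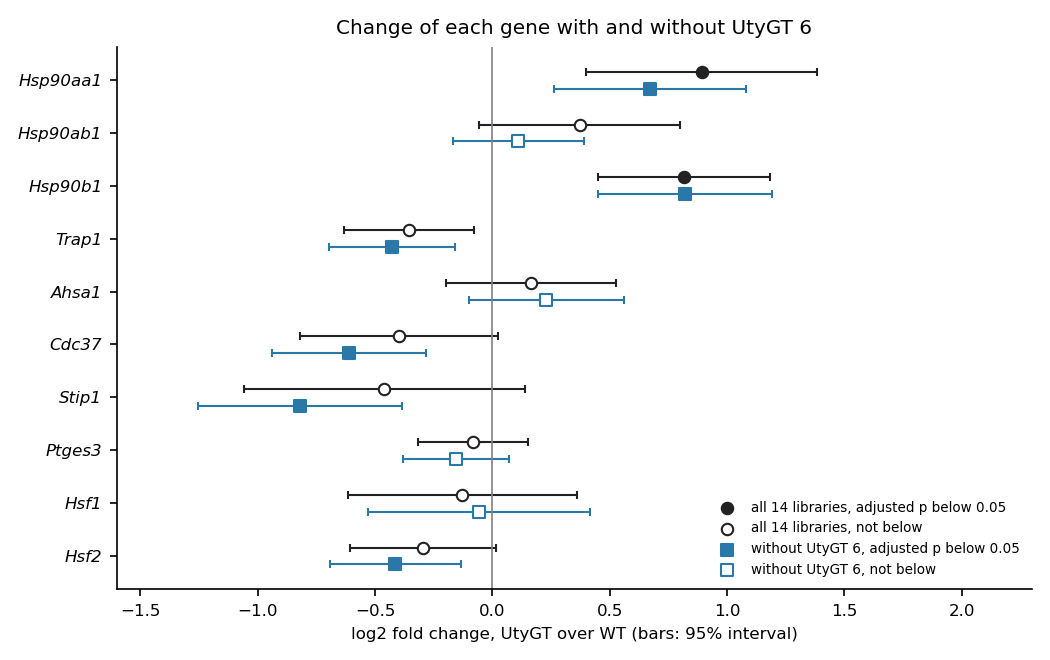
The log2 fold change of UtyGT over WT is plotted for each of the 10 genes with all 14 libraries (black circles) and without UtyGT 6 (blue squares), with bars for the 95% interval and filled symbols where the adjusted p was below 0.05. Hsp90aa1 and Hsp90b1 were called higher both ways, while Trap1, Cdc37, Stip1 and Hsf2 were called lower only without UtyGT 6.

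Levels of the 10 genes spanned a wide range. Hsp90ab1 was the most abundant of them in WT hearts, at 1785 ± 370.3 CPM (SD, n = 7), followed by Hsp90b1 at 168 ± 49.6 CPM. Stip1, Trap1, Cdc37 and Hsp90aa1 came next, between 112 ± 38.8 and 77.5 ± 20.1 CPM, and neighbours in this order differed by less than their spread. Ptges3 was at 50.8 ± 5.27 CPM, Ahsa1 at 38.6 ± 8.47 CPM, Hsf2 at 26.3 ± 4.96 CPM and Hsf1 at 7.73 ± 2.88 CPM. In UtyGT hearts Hsp90aa1 took the third place rather than the sixth, and by the means of all 7 libraries the other genes kept their order among themselves. Without UtyGT 6, Trap1 (72.7 ± 5.09 CPM) came before Stip1 (64.2 ± 15.9 CPM) and Cdc37 (60.6 ± 6.68 CPM).

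**Figure D2:**
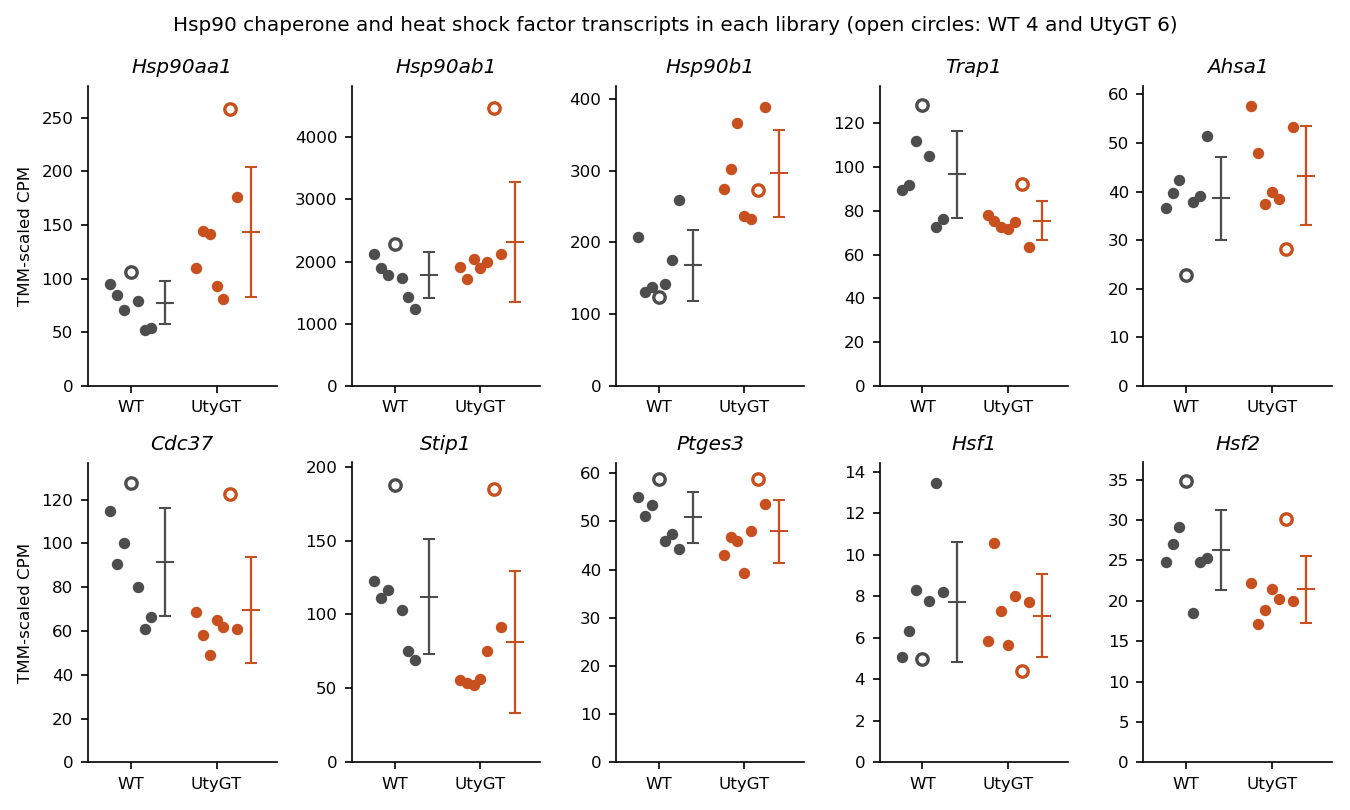
Each panel shows the TMM-scaled CPM of a gene in the 7 WT libraries (grey) and the 7 UtyGT libraries (orange), with the mean and SD at the right of each group; open circles mark WT 4 and UtyGT 6. All 7 UtyGT libraries lie above the WT median for Hsp90aa1 and Hsp90b1, and UtyGT 6 lies far above the other UtyGT libraries for Hsp90ab1, Cdc37 and Stip1.

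Hsp90aa1 (chr12:110690605-110702728, GRCm38) encodes the cytosolic Hsp90 isoform whose synthesis is induced by heat and other stresses. Its level was 52.6, 79.6 and 106 CPM at the lowest, median and highest of the WT libraries, and 80.6, 142 and 259 CPM in UtyGT. All 7 UtyGT libraries were above the WT median and 5 were above every WT library, but the genotypes overlapped. The mean was 77.5 ± 20.1 CPM in WT hearts and 144 ± 60.5 CPM in UtyGT, a log2 fold change of 0.89 ± 0.23 (SE) with an adjusted p of 0.030. Without UtyGT 6, the highest library, the value was 0.67 with an adjusted p of 0.024. The call was lost with the GC correction (0.74, adjusted p = 0.108), and when WT 3 (0.87, adjusted p = 0.063), WT 5 (0.90, 0.056), UtyGT 3 (0.89, 0.055) or UtyGT 7 (0.84, 0.065) was left out. Hsp90aa1 transcripts had a GC content of 43.7% against a median of 49.7% for all tested genes. Near-identical copies of the last 300 bases of Hsp90aa1 were found in pseudogenes Gm12346 and Gm5844, with an identity of 99.67% and 98%. These pseudogenes together received 80 counts in the 14 libraries against 12521 for Hsp90aa1, and reads without a unique alignment were not assigned to any gene, so that its level may be understated.

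Hsp90ab1 (chr17:45567775-45573271) encodes the constitutive cytosolic isoform. Its lowest, median and highest levels were 1233, 1791 and 2290 CPM in WT hearts and 1727, 1997 and 4478 CPM in UtyGT. The highest value belonged to UtyGT 6, and the other 6 UtyGT libraries were all below the highest WT library. This gave a log2 fold change of 0.37 ± 0.20, with a 95% interval of -0.06 to 0.80 and an adjusted p of 0.265. Without UtyGT 6 the value dropped to 0.11, with an interval of -0.17 to 0.39 and an adjusted p of 0.585, and the gene was called higher only in the fit with surrogate variables (0.45, adjusted p = 0.00101).

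The balance between both cytosolic isoforms was compared within libraries, where scaling to library size has no influence. The GC slopes of the libraries may still act on it, as GC content was 43.7% for Hsp90aa1 and 51.0% for Hsp90ab1. Hsp90aa1 made up 3.56% to 4.44% of the counts of the pair in WT libraries, with a mean of 4.13% ± 0.33 (SD, n = 7), and 3.88% to 7.74% in UtyGT libraries, with a mean of 5.91% ± 1.47. All UtyGT libraries except UtyGT 5 were above every WT library, and UtyGT 6, with 5.46%, was close to the mean of its group. The difference of 1.78 percentage points gave p = 0.00816 in a two-sided exact permutation test over 3432 assignments, or 0.0163 when adjusted over the 2 shares tested. The pair was chosen with earlier results of these data known, and Hsp90aa1 was called higher in the same libraries. The p-value is therefore not independent of that call. Compared by medians the difference was 1.20 points, with an exact permutation p of 0.0583. Of 17 alternatives for this share, the GC correction among them, the other 16 kept its sign and an exact permutation p below 0.05. Counts of the pair together were at 1862 ± 390 CPM in WT hearts and 2455 ± 1015 CPM in UtyGT, or 2075 ± 148 CPM without UtyGT 6.

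Hsp90b1 (chr10:86690209-86705509), also known as Grp94, encodes the Hsp90 paralog of the endoplasmic reticulum, where it folds secreted and membrane proteins such as integrins and Toll-like receptors. Its lowest, median and highest levels were 124, 142 and 259 CPM in WT hearts and 233, 274 and 389 CPM in UtyGT. Again 5 UtyGT libraries were above every WT library, and all but 1 of the WT libraries, WT 7, were below every UtyGT library. The mean was 168 ± 49.6 CPM in WT hearts and 297 ± 60.6 CPM in UtyGT, for a log2 fold change of 0.82 ± 0.17 and an adjusted p of 0.012. The call was kept in all 23 alternatives, with adjusted p between 0.000218 and 0.0308, including the GC correction (0.66, adjusted p = 0.017). Library UtyGT 6, at 274 CPM, was close to the median of its group. Hsp90b1 overlaps the gene 1810014B01Rik on the opposite strand, which received 407 counts against 25770 for Hsp90b1; as the strand setting of the counting is not given in the sources used here, reads of the overlap could not be told apart.

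The promoter of Hsp90b1 is shown because it carries a pair of endoplasmic reticulum stress elements, a motif made of CCAAT and CCACG with 9 bases between them, to which factors of the unfolded protein response bind. Promoter windows from RefSeq (GRCm38.p6) spanned 250 bases before to 50 bases after the gene start in RefSeq, and windows were found for 7 of the 10 genes, all except Hsp90aa1, Hsp90ab1 and Hsf1. The 250 bases before the start of Hsp90b1, on the minus strand at chr10:86705445-86705694, are printed with the fixed bases of the motif in capitals, the second match being in the reverse orientation.
Hsp90b1: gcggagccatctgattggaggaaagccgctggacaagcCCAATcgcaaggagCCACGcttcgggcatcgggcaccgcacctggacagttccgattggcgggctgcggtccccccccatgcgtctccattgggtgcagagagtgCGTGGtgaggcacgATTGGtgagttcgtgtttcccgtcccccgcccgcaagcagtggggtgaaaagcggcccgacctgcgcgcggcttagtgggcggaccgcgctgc
The matches began 212 and 107 bases before the start. The motif, searched on both strands, was found in 39 of 32851 windows (0.119%), and Hsp90b1 was the sole holder among the 7 genes. It was also found for 6 of 18 partners of Hsp90b1 in the endoplasmic reticulum that had a window, namely Calr, Canx, Creld2, Dnajc3, Hspa5 and Pdia6. Genes were counted if any of their windows matched, unlike the percentage of single windows. A match describes the sequence and does not show that a factor binds there.

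Partners of Hsp90b1 were taken to be folding enzymes and chaperones of the endoplasmic reticulum. Of 20 tested partners, 1 (5.0%) was called higher and 0 lower, beside 4.7% and 3.34% of all tested genes, and the median log2 fold change was 0.07. At an unadjusted p below 0.05, 3 were higher and 2 lower, DESeq2 called 3 higher and 0 lower, and limma voom called 1 higher and 0 lower. The gene called was Dnajc3, an endoplasmic reticulum co-chaperone of Hsp70, with lowest, median and highest levels of 42.8, 49.1 and 56.5 CPM in WT and 59.6, 66.2 and 82.7 CPM in UtyGT (0.50 ± 0.11 on the log2 scale, adjusted p = 0.014). Its genotypes did not overlap, but the call was lost with the GC correction (0.33, adjusted p = 0.052). Hspa5, the main Hsp70 of the endoplasmic reticulum and a holder of the same motif, was at 1793 ± 444 CPM in WT hearts and 1695 ± 263 CPM in UtyGT, with an interval for its log2 fold change of -0.41 to 0.24 (named after its values were seen). Also higher at an unadjusted p below 0.05 were Sdf2l1 (1.19 ± 0.36, adjusted p = 0.0505, mean of 2.76 CPM in WT) and Dnajb11 (0.50 ± 0.16, adjusted p = 0.061). Cnpy3 (-0.41 ± 0.18) and Hyou1 (-0.37 ± 0.14) were lower at that level. These genes too were named after their values were seen. Without UtyGT 6, 3 partners were called higher and 1 lower, beside 7.87% and 11.4% of all tested genes.

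Trap1 (chr16:4039971-4077827) encodes the mitochondrial Hsp90. Its lowest, median and highest levels were 72.8, 91.9 and 128 CPM in WT hearts and 63.4, 75.1 and 92.3 CPM in UtyGT. UtyGT libraries were below the WT median except UtyGT 6, and 3 of them were below every WT library. The log2 fold change was -0.35 ± 0.13, with an interval of -0.63 to -0.08 and an adjusted p of 0.104. Trap1 was called lower without UtyGT 6 (-0.43, adjusted p = 0.027) and in the fit with surrogate variables (-0.28, 0.027), but not when WT 4 was also left out (-0.33, adjusted p = 0.067).

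Among 14 tested partners of Trap1, taken to be chaperones and quality-control proteases of mitochondria, 1 (7.14%) was called higher and 0 lower, beside 4.7% and 3.34% of all tested genes. At an unadjusted p below 0.05, 2 were higher and 1 lower, and DESeq2 and limma voom each called 1 higher and 0 lower. Without UtyGT 6, 1 was called in each direction, beside 7.87% of all tested genes higher and 11.4% lower. The median log2 fold change was 0.04. The gene called was Hspd1, the mitochondrial chaperonin Hsp60, which had lowest, median and highest levels of 199, 222 and 254 CPM in WT hearts and 280, 326 and 398 CPM in UtyGT. Every UtyGT library was above every WT library, and the log2 fold change was 0.58 ± 0.10 with an adjusted p of 0.0036. Trap1 and Hspd1 thus had fold changes of opposite sign, although Trap1 was not called in the 14 libraries.

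The 4 co-chaperones act at different steps of the Hsp90 cycle. Stip1 (chr19:7020696-7040026), also known as Hop, joins Hsp70 to Hsp90 and passes clients between them. Its lowest, median and highest levels were 69.4, 111 and 187 CPM in WT hearts and 52.5, 56.3 and 185 CPM in UtyGT. In UtyGT, 4 libraries were below every WT library, whereas UtyGT 6 was close to WT 4, the highest library of the WT group. Its log2 fold change was -0.46 ± 0.28, with an interval of -1.06 to 0.14 and an adjusted p of 0.330. It was -0.82 without UtyGT 6 (adjusted p = 0.012) and -0.63 without both UtyGT 6 and WT 4 (adjusted p = 0.019), and Stip1 was called lower in both cases.

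Cdc37 (chr9:21133222-21149982) brings protein kinases to Hsp90. Its levels were 60.8, 90.8 and 128 CPM at the lowest, median and highest of WT and 49.2, 61.9 and 122 CPM in UtyGT, where UtyGT 6 was the only library above the WT median. The log2 fold change was -0.40 ± 0.20, with an interval of -0.82 to 0.03 and an adjusted p of 0.231. Cdc37 was called lower without UtyGT 6 (-0.61, adjusted p = 0.013), without both WT 4 and UtyGT 6 (-0.49, adjusted p = 0.027) and with surrogate variables (-0.28, adjusted p = 0.023).

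Ahsa1 (chr12:87266479-87273998) stimulates the ATPase activity of Hsp90, and Ptges3 (chr10:128058954-128077272), also known as p23, slows it and stabilises the client-bound state. Ahsa1 ranged from 22.9 to 51.4 CPM in WT hearts and from 28.2 to 57.6 CPM in UtyGT, and Ptges3 from 44.2 to 58.8 CPM in WT hearts and from 39.2 to 58.8 CPM in UtyGT. Genotypes overlapped widely for both genes. The log2 fold change of Ahsa1 was 0.16 ± 0.17 (interval -0.20 to 0.53, adjusted p = 0.592) and that of Ptges3 was -0.08 ± 0.11 (interval -0.32 to 0.15, adjusted p = 0.684). Ahsa1 was at its lowest in WT 4 and UtyGT 6, the same libraries in which Stip1, Cdc37 and Ptges3 were at their highest. A lincRNA, Gm49207, holds a near-identical copy of the 3′ end of Ahsa1, so that its reads too may be undercounted.

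Promoters of Stip1 and Cdc37 are shown as examples whose windows hold different numbers of the motifs searched. Both genes were below the WT median in 6 of 7 UtyGT libraries, as were Trap1 and Hsf2, whose promoters are not shown. The 250 bases before the start are printed for Stip1 at chr19:7040027-7040276 with CCAAT boxes in capitals, and for Cdc37 at chr9:21149935-21150184 with a 2-unit heat shock element in capitals, both on the minus strand of GRCm38.p6.
Stip1: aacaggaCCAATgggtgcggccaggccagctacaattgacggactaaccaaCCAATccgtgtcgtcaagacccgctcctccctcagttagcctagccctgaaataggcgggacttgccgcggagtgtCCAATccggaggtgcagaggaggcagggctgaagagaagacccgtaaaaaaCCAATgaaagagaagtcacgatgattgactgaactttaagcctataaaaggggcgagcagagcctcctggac
Cdc37: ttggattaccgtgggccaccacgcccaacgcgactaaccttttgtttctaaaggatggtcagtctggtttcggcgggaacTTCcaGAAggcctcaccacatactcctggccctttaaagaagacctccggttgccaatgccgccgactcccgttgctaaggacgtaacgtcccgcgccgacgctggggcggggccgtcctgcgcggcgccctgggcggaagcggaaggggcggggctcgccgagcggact
Stip1 had 4 CCAAT boxes, at 243, 199, 123 and 72 bases before the start, all in the forward orientation. Cdc37 had a single CCAAT box, 117 bases before the start, which is left in lower case in its sequence. Its gene as counted reaches position 21149982, so the end of the stretch next to the RefSeq start lies within it. The CCAAT box, spelled CCAAT or ATTGG, was present in 37.4% of all windows and for 4 of the 7 genes with a window. The 2-unit heat shock element, spelled GAANNTTC or TTCNNGAA, was present in 15.1% of all windows, and among the 7 genes in that of Cdc37 alone, 170 bases before its start. The 3-unit element, in which a further unit follows a 2-unit element at the same spacing, was present in 0.603% of all windows and in 0 of the 7.

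Summed co-chaperone transcripts were then set against summed cytosolic Hsp90 transcripts in each library. For 100 transcripts of Hsp90aa1 and Hsp90ab1, WT libraries held 14.7 to 18.0 transcripts of the 4 co-chaperones, with a mean of 15.8 ± 1.29 (SD, n = 7), and UtyGT libraries held 8.33 to 11.3, with a mean of 10.2 ± 1.26. The genotypes did not overlap, and WT 4 with 16.6 and UtyGT 6 with 8.33 each fell with their own genotype. The mean of UtyGT without UtyGT 6 was 10.5 ± 1.06. The co-chaperone sum itself was 293 ± 60.4 CPM in WT hearts and 242 ± 71.2 CPM in UtyGT, or 217 ± 25.7 CPM without UtyGT 6, which was at 394 CPM, and the Hsp90 sum is given above. No test was made of this ratio, since its genes were chosen with results of these libraries known. How often ratios of other genes separate the genotypes was not examined. The ratio covers these 4 co-chaperones only: 26 tested co-chaperones outside the 10 genes had a median log2 fold change of -0.01. Their summed level was 1960 to 3043 CPM in WT hearts and 2223 to 3668 CPM in UtyGT, or 2223 to 2561 CPM without UtyGT 6.

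**Figure D3:**
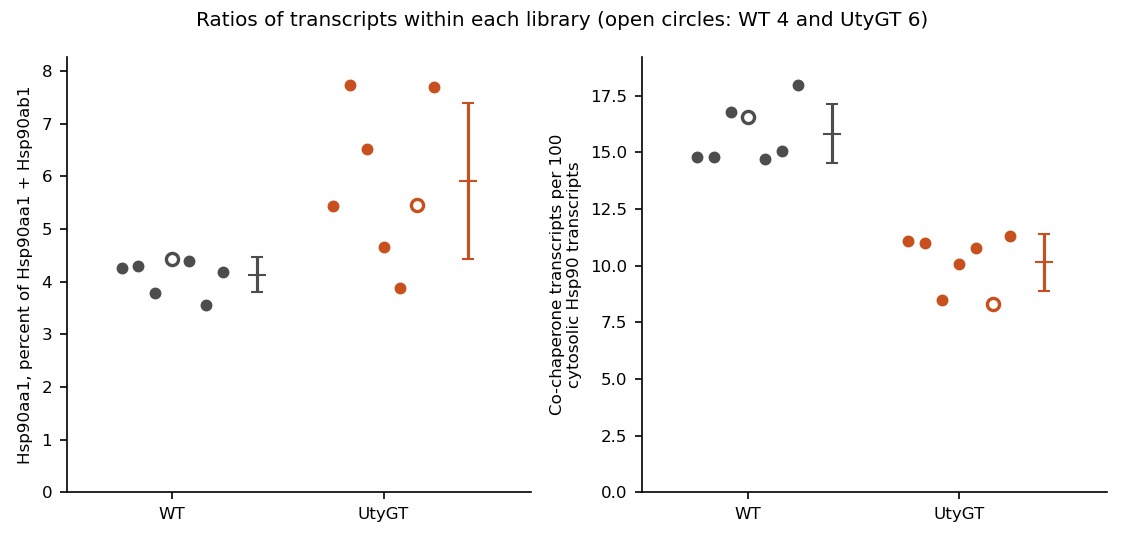
The left panel shows Hsp90aa1 as a percent of Hsp90aa1 and Hsp90ab1 counts, and the right panel the transcripts of Ahsa1, Cdc37, Stip1 and Ptges3 per 100 cytosolic Hsp90 transcripts, in WT (grey) and UtyGT (orange) libraries with the mean and SD; open circles mark WT 4 and UtyGT 6. In the left panel 6 of 7 UtyGT libraries lie above 4.44%, the highest WT value, and in the right panel all UtyGT libraries lie at or below 11.3 and all WT libraries at or above 14.7.

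Hsf1 (chr15:76477445-76500972) is the main activator of the heat shock response, and Hsf2 (chr10:57486385-57513135) is a related factor that can join Hsf1 in mixed trimers. Hsf1 was measured with only 36 to 103 counts per library and ranged from 4.97 to 13.4 CPM in WT hearts and from 4.42 to 10.5 CPM in UtyGT. Its log2 fold change was -0.13 ± 0.23, with an interval of -0.62 to 0.36 and an adjusted p of 0.773, and turned to 0.06 without WT 6.

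Hsf2 had lowest, median and highest levels of 18.5, 25.3 and 34.8 CPM in WT hearts and 17.2, 20.2 and 30.1 CPM in UtyGT. As with Cdc37 and Stip1, UtyGT 6 was the only UtyGT library above the WT median. Hsf2 had a log2 fold change of -0.30 ± 0.15, with an interval of -0.61 to 0.02 and an adjusted p of 0.226, and Hsf2 was called lower without UtyGT 6 (-0.41, adjusted p = 0.037) but not without both WT 4 and UtyGT 6 (-0.32, adjusted p = 0.095). Hsf2 made up 77.2% ± 7.71 of the counts of both factors in WT and 74.8% ± 7.97 in UtyGT (n = 7 each), a difference of -2.41 percentage points with an exact permutation p of 0.57. Of 5 genes that regulate heat shock factors or belong to their family, only Hsbp1, a small protein that binds Hsf1 trimers, had enough counts to be tested, and it was not called by edgeR, DESeq2 or limma voom, nor at an unadjusted p below 0.05 (0.15 ± 0.20, interval -0.27 to 0.57).

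Several known targets of the heat shock response outside the 10 genes were higher in UtyGT hearts. This list, like the other lists of related genes, was drawn up with earlier results of these data known. Its shares are therefore a description, and no test of the list was made. Of 18 tested targets, 6 (33.3%) were called higher and 0 lower, beside 4.7% and 3.34% of all tested genes, with 1 lower at an unadjusted p below 0.05 and 0 by DESeq2 or limma voom, and 15 had a log2 fold change above 0. The median was 0.55, against 0.01 for all tested genes. Hspa4l and Hspa4, of the Hsp110 family that exchanges nucleotides on Hsp70, were at 42.3 ± 3.10 and 163 ± 21.3 CPM in WT hearts and at 76.0 ± 11.9 and 302 ± 58.7 CPM in UtyGT. Their log2 fold changes were 0.84 ± 0.11 (adjusted p = 0.00079) and 0.89 ± 0.13 (adjusted p = 0.0019), and in both genes every UtyGT library was above every WT library. The same separation was found for Hspd1, given above, and for Chordc1, a co-chaperone that is itself induced by heat, so that 4 of 18 targets were higher without overlap, against 1.46% of all tested genes. Bag3, a partner of Hsp70 in the clearance of damaged muscle proteins, and Dnaja1, an Hsp40, were called as well, at 0.75 ± 0.15 and 0.75 ± 0.16 (named after their values were seen), and the call of Dnaja1 was lost with the GC correction (0.58, adjusted p = 0.051). Hspa1a and Hspa1b, the inducible Hsp70 pair, had the highest fold changes of the list, 1.59 ± 0.49 and 1.82 ± 0.61, at means of 4.09 and 2.01 CPM in WT, with adjusted p of 0.055 and 0.077 (also named after their values were seen). This pair is nearly identical in sequence, and its reads are uncertain. Not all targets moved this way: Hspa8, the constitutive Hsp70, was at 234 ± 48.1 CPM in WT hearts and 190 ± 26.7 CPM in UtyGT (adjusted p = 0.184). Without UtyGT 6, 8 targets were called higher and 1 lower, beside 7.87% and 11.4% of all tested genes.

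Among the 16 targets with a promoter window, 11 (68.8%) held a 2-unit heat shock element, which 15.1% of all windows held. These shares are in unlike units: a target counted if any of its windows matched, while the background counts single windows. The 3-unit element, held by 0.603% of all windows, was found for 4 (25%): Chordc1, Hspd1, Hspe1 and Hsph1. Of these, Hspe1 and Hsph1 were not called (adjusted p = 0.087 and 0.116 in the edgeR test). Hspa4l and Hspa4, called higher without overlap, were not among the 11 holders. Whether the element goes with the change was not tested. The element of Hspd1 is shown as an example from a gene that rose without overlap. It lies on the minus strand at chr1:55088047-55088082 (GRCm38.p6), and its units, in capitals, begin 144 bases before the RefSeq start. Hspd1 as counted spans chr1:55077835-55088243, so this stretch lies within it.
Hspd1: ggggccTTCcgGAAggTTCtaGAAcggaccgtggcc
Hspd1 and Hspe1 lie head to head, and the same units were found in both windows.

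Of 26 tested co-chaperones outside the 10 genes, 4 (15.4%) were called higher and 1 (3.85%) lower, beside 4.7% and 3.34% of all tested genes, and the median log2 fold change was -0.01. The number called higher fell to 2 without WT 3, WT 5 or UtyGT 3. It was 9 with surrogate variables, a fit that called 1255 of all 11563 tested genes higher. Chordc1 was at 56.0 ± 8.44 CPM in WT hearts and 91.8 ± 11.9 CPM in UtyGT (0.71 ± 0.12, adjusted p = 0.0033). Ahsa2, a relative of Ahsa1, was at 24.1, 27.0 and 27.8 CPM at the lowest, median and highest of WT and at 31.3, 37.9 and 55.0 CPM in UtyGT, without overlap (0.63 ± 0.14, adjusted p = 0.012). Unc45b, which works with Hsp90 in the folding of muscle myosin, was at 212 ± 23.7 CPM in WT hearts and 287 ± 39.7 CPM in UtyGT, also without overlap (0.44 ± 0.11, adjusted p = 0.028). Its call was lost without a count filter (adjusted p = 0.062) and when WT 3, WT 5, UtyGT 3 or UtyGT 7 was left out (adjusted p 0.051 to 0.065). Itgb1bp2, or melusin, a relative of Chordc1 found in striated muscle, was the other gene called higher (0.59 ± 0.16, adjusted p = 0.036; named after its values were seen), and its call was lost in 8 of 14 fits that left out a library, namely WT 1, WT 3, WT 5, WT 6, UtyGT 1, UtyGT 3, UtyGT 4 or UtyGT 5 (adjusted p 0.051 to 0.068). Fkbp8, a membrane-anchored immunophilin, was the gene called lower, at 46.0 ± 7.26 CPM in WT hearts and 32.1 ± 4.22 CPM in UtyGT (-0.52 ± 0.12, adjusted p = 0.019), but its transcripts had a GC content of 63.0% and the GC correction reduced its value to -0.18 (adjusted p = 0.342). Co-chaperones called lower numbered 6 without UtyGT 6, beside 11.4% of all tested genes. They numbered 4 with DESeq2, which called 669 of 11191 genes lower. The lists of targets, co-chaperones and partners share members such as Chordc1, Fkbp4 and Hspd1, which count in each.

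**Figure D4:**
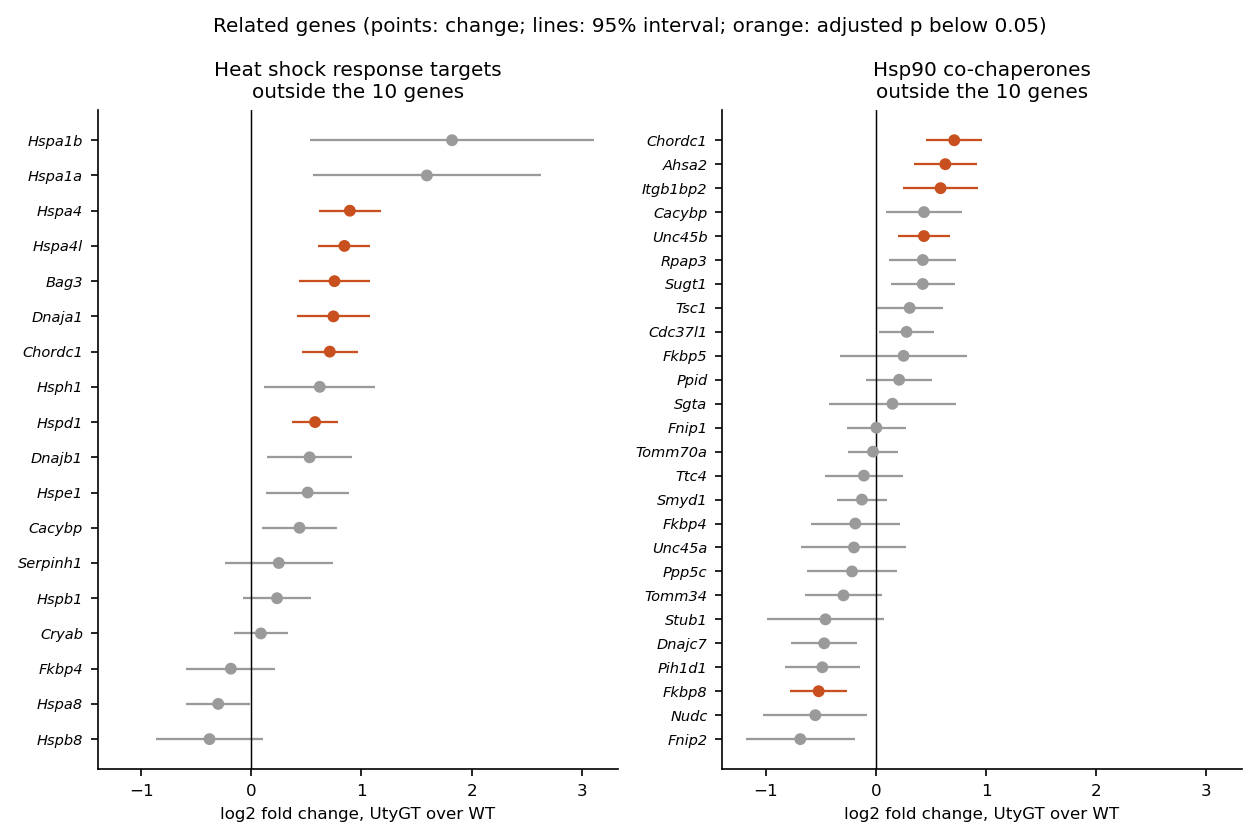
The log2 fold change of UtyGT over WT with its 95% interval is plotted for the 18 tested heat shock response targets (left) and the 26 tested co-chaperones outside the 10 genes (right), with genes called in orange. Of the targets 15 lie above 0 and 6 are called higher, whereas the co-chaperones lie on both sides of 0, with 4 called higher and 1 lower.

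Protein kinases and receptors known to depend on Hsp90 as clients were examined next. Of 25 tested clients, 1 (4.0%) was called lower and 0 higher, beside 3.34% and 4.7% of all tested genes. At an unadjusted p below 0.05, 4 were higher and 4 lower. DESeq2 called 1 higher and 3 lower, and limma voom called 0 higher and 1 lower. Without UtyGT 6, 2 were called in each direction, beside 7.87% of all tested genes higher and 11.4% lower. The median log2 fold change was 0.12. The client called was Akt2, a kinase of insulin signalling, which had lowest, median and highest levels of 280, 415 and 616 CPM in WT hearts and 155, 204 and 407 CPM in UtyGT (-0.89 ± 0.22, adjusted p = 0.023). The call was lost without WT 4 (-0.80), UtyGT 1 (-0.82), UtyGT 3 (-0.83) or UtyGT 7 (-0.86), with adjusted p of 0.050 to 0.055. Genes that respond to handling or to the time of day were examined beside these. Of 13 tested immediate early genes, 1 (7.69%) was called higher, beside 4.7% of all tested genes, or 2 without UtyGT 6 (beside 7.87%). It was Klf6 (0.72 ± 0.20, adjusted p = 0.036), whose call was lost with the GC correction (0.55, adjusted p = 0.072) and in 10 of 14 fits that left out a library, and 0 were called lower by edgeR, DESeq2 or limma voom, or at an unadjusted p below 0.05. Of 14 tested clock genes, 1 (7.14%) was called lower, beside 3.34% of all tested genes, and 0 were called higher, beside 4.7%. The gene called was Nr1d1, a repressor of the clock with a strong daily rhythm. Its medians were 30.1 CPM for WT hearts and 15.3 CPM for UtyGT hearts (-0.94 ± 0.17 on the log2 scale, adjusted p = 0.0043). Clock genes that were higher numbered 4 at an unadjusted p below 0.05, 1 by DESeq2 and 0 by limma voom. Without UtyGT 6, 2 were called lower, beside 11.4% of all tested genes. The part of handling or time of day in the results was not tested.

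Within genotypes, Hsp90aa1 varied from library to library together with some of the other genes. After the mean of each genotype was subtracted from log2(CPM + 1), Hsp90aa1 was compared with each of the other 9 genes over the 14 libraries, with p-values from 100000 permutations within genotypes, adjusted over the 9 relations. Hsp90ab1 went with it at r = 0.81 (permutation p = 0.0006, adjusted 0.0054) and rho = 0.72 (permutation p = 0.0021, adjusted 0.0189). For Stip1 the values were r = 0.77 (permutation p = 0.00253, adjusted 0.00759) and rho = 0.69 (0.0102, adjusted 0.0305), and for Ptges3 they were r = 0.79 (permutation p = 0.00228, adjusted 0.00759) and rho = 0.75 (0.00533, adjusted 0.024). When the libraries farthest from the median, UtyGT 5 and UtyGT 6, were left out, r was 0.76, 0.79 and 0.86 for Hsp90ab1, Stip1 and Ptges3, and when UtyGT 6 alone was left out it was 0.67, 0.61 and 0.69. Cdc37 gave r = 0.69 (permutation p = 0.00871, adjusted 0.0196) and rho = 0.49 (0.0787, adjusted 0.144), with r = 0.57 without both libraries and 0.48 without UtyGT 6 alone. Hsp90b1 showed r = 0.01 (permutation p = 0.959) and rho = 0.08 (0.786), but the sign of r differed between genotypes, at -0.55 within WT and 0.54 within UtyGT, which was not tested. Trap1, Hsf2, Ahsa1 and Hsf1 gave r of 0.52, 0.40, -0.49 and -0.53, none below an adjusted p of 0.05. Libraries share their scaling and their GC slopes, and the part of these in the relations was not tested. The first principal component of all genes held 45.75% of the variance. How many of all genes reach such r with Hsp90aa1 was not counted. Whether these genes are closer to Hsp90aa1 than other genes are was therefore not tested. No WT library was left out, although the same WT library was highest for Hsp90aa1, Hsp90ab1, Stip1, Cdc37 and Ptges3.

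Over all 4929 genes at a mean level of 20 CPM or more, the 6 most like Hsp90aa1 by the same measure were Hsph1 (r = 0.93), Mesdc2 (0.93), Unc45b (0.92), Rnf6 (0.89), Smim15 (0.89) and Tial1 (0.88). Hsph1 encodes Hsp105, a chaperone of the Hsp110 family, and was at 71.4 ± 17.9 CPM in WT hearts and 110 ± 50.5 CPM in UtyGT (0.62 ± 0.24, adjusted p = 0.116). Mesdc2 is a chaperone of the endoplasmic reticulum for lipoprotein receptors, Rnf6 a ubiquitin ligase and Tial1 an RNA-binding protein. Of these 6 genes only Unc45b was called between genotypes. When UtyGT 6 was left out, 5 of the 6 remained among the first 5 places and Tial1 took the eighth place with r = 0.81.

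**Figure D5:**
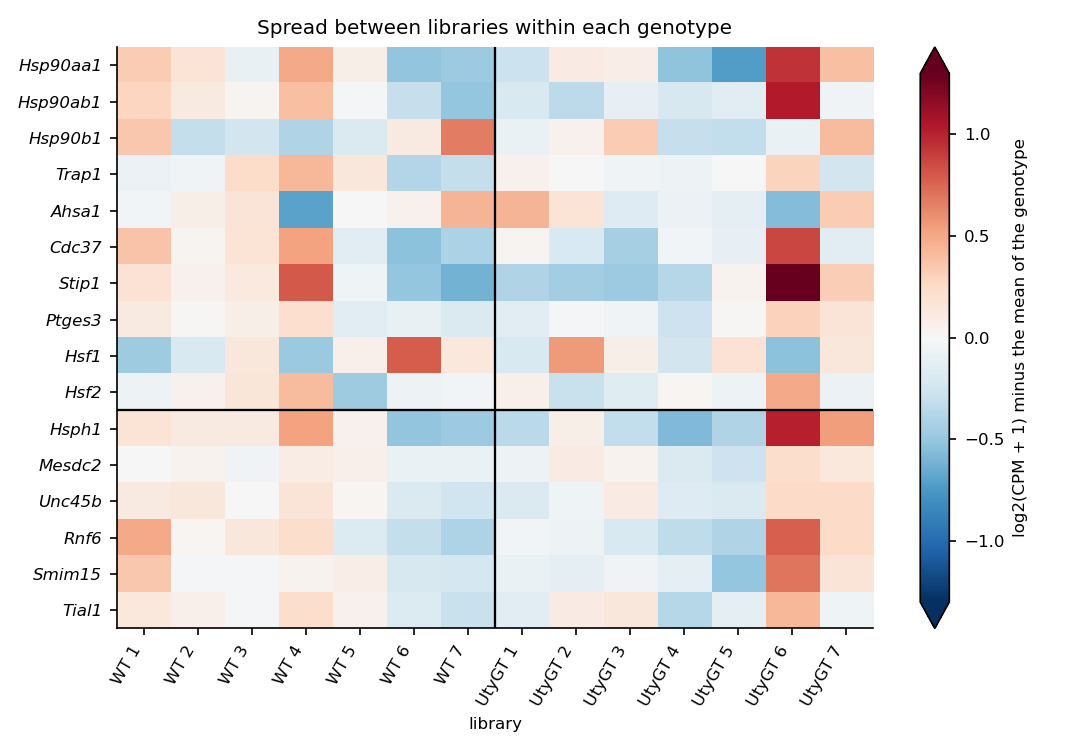
Colours show log2(CPM + 1) minus the mean of the genotype for the 10 genes (above the black line) and for the 6 genes most like Hsp90aa1 (below it) in the 14 libraries, red for above and blue for below the genotype mean. WT 4 and UtyGT 6 are red for Hsp90aa1, Hsp90ab1, Trap1, Cdc37 and Stip1 and blue for Ahsa1 and Hsf1.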

How the data were processed

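RNA from frozen left ventricles of 14 mice was sequenced as QuantSeq 3′ FWD libraries, with 7 mice per genotype. The authors' methods state that reads were aligned to GRCm38/mm10 on the Bluebee platform and counted with featureCounts v1.6.0 on Ensembl v98. The deposited counts are whole reads per gene and were not normalized. CASAVA 1.4, FastQC and STAR are listed in the submitters' processing notes. Entries naming no gene, in the form written by htseq-count, took 45.9% to 49.1% of reads and were left out; whether strand was used in counting is therefore unsettled. Columns with the DESeq2 1.22.2 comparison of the authors (mean, fold change, error, statistic and p-values) were not used. Columns were assigned to genotypes, and library numbers are those of the columns, which the labels do not tie to single mice.

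Counts were analysed with edgeR 4.0.16 in R 4.3.3, with a filterByExpr minimum count of 10, TMM scaling, the robust quasi-likelihood F test and Benjamini-Hochberg adjustment over 11563 genes. Log2 fold changes are UtyGT over WT, ± is the SE for fold changes and the SD otherwise, and CPM are TMM-scaled. P-values measure the spread between mice (biological coefficient of variation 26.2%). No libraries of a genotype were duplicates: the lowest chi-square per gene between a pair was 8.29. Shares were compared by exact permutation. Alternatives were DESeq2 1.42.0, RLE or no composition scaling, no filter, a filter at 1 CPM in 7 libraries, limma 3.58.1 voom, 1 surrogate variable (sva 3.50.0), a lowess GC correction (span 0.3) on the longest transcript of each gene, and leaving out libraries. Members and lists were chosen with earlier results of these data known. Named were all 10 genes, up to 3 called genes per direction and list with the smallest adjusted p, and the 6 genes most like Hsp90aa1 in their spread within genotypes. Copies of 3′ ends were matches of at least 95% identity over at least 100 of the last 300 bases.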

Additional observations from a re-analysis of the deposited data

Results flagged for a closer look

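In each genotype the highest and lowest library of each gene and of both shares was compared with the others by Dixon's criterion, which flags about 1 in 20 groups by chance. Of 24 groups examined, 5 were flagged. Library UtyGT 6 lay far above the other 6 UtyGT libraries for Hsp90ab1 (4478 CPM), Cdc37 (122 CPM), Stip1 (185 CPM) and Hsf2 (30.1 CPM). In the WT group, WT 6 lay far above the others for Hsf1 (13.4 CPM).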

How the results depend on the processing

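Over 230 results for the 10 genes under the alternatives, 215 kept their direction and their side of the threshold, 5 lost a call, 9 gained one and 1 changed sign. The sign changed for Hsf1, which was at -0.13, ranged from -0.249 to 0.060 when each library was left out in turn, with 0.060 without WT 6, and was never called. The number of the 10 genes called higher was 2, with 1 under the GC correction and 3 with surrogate variables; it ranged from 1 to 2 when each library was left out in turn. The number called lower was 0, and 2 with surrogate variables and 2 without both WT 4 and UtyGT 6; it ranged from 0 to 4 when each library was left out in turn, the 4 being found without UtyGT 6. The difference in the Hsp90aa1 share, 1.78 points, was 1.20 points by medians (exact permutation p = 0.0583) and ranged from 1.48 to 2.12 without each library. The difference in the Hsf2 share ranged from -4.49 to -0.277 points without each library. Over all genes, calls were 543 higher and 386 lower, 919 and 1329 without UtyGT 6, 1255 and 1245 with surrogate variables, 309 and 247 with the GC correction, and 714 and 669 with DESeq2. With WT 4 left out they were 276 and 174, with no count filter 337 and 275, and without both WT 4 and UtyGT 6 796 and 834. The cause of these changes was not tested, beyond the fewer libraries in some fits. Hsf1 had the fewest counts of the 10 genes, 36 to 103 per library. No paired analysis was possible because the column numbers are not tied to mice by the labels.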
